A study of Mus musculus with 4 samples.

Results

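The 5 receptors of fibroblast growth factors (Fgfr1, Fgfr2, Fgfr3, Fgfr4 and Fgfrl1) and 5 of the ligands that act on the skeleton (Fgf2, Fgf7, Fgf9, Fgf10 and Fgf18) were examined in cultured rib chondrocytes with and without Senp6. These 10 genes were chosen by name, by gene family and role, out of the 18298 genes that were listed in 1 or more of the samples, and all 10 had reads in every sample. Both groups were primary cells of C57BL/6 embryos at E18.5, grown to passage 1. The 2 mutant cultures carried Dermo1-Cre and Senp6f/f. The 2 WT cultures carried Senp6f/f, so both groups had the floxed Senp6 allele, which encodes a protease that removes SUMO chains from proteins. Dermo1-Cre is driven from the Twist2 locus in mesenchymal progenitors of cartilage and bone, and cells outside that lineage keep the gene. Whether embryos were pooled, or whether replicates were separate litters, is not given, so the p values measure only the spread between these samples.

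FGF ligands are secreted proteins that bind a receptor together with heparan sulfate or, for the hormone-like ligands, with a Klotho protein. FGFR1 to FGFR4 are tyrosine kinases that signal through the adaptor FRS2 to RAS and ERK and through phospholipase C gamma, and the pathway induces its own inhibitors of the Sprouty, Spred and Dusp families. FGFRL1 binds ligands but has no kinase domain. In the growth plate FGFR3 restrains chondrocyte proliferation and gain-of-function changes in it cause achondroplasia, FGFR1 is found in hypertrophic chondrocytes and perichondrium, and FGFR2 in the perichondrium and osteoblast lineage. FGF9 and FGF18 are made around the cartilage and act through FGFR3. FGF7 and FGF10 are mesenchymal ligands that act mainly on the epithelial splice form of FGFR2, and FGF2 is stored in the matrix. The files count reads per gene, so the splice forms of the receptors are not separated.

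The promoters of 9 of the 10 genes were found by symbol in a RefSeq table of the GRCm38.p6 assembly, as windows of 250 bases before to 50 bases after a start site. Fgfr1, on chromosome 8 (25513654 to 25575718 in GRCm38, plus strand), had no entry. The windows are shown for Fgfr2, Fgfrl1 and Fgf10, the genes with an entry for which the unadjusted p of the genotype comparison was lowest. They are written 5′ to 3′ in lower case, and capitals mark GC boxes (GGGCGG, or CCGCCC on the other strand), the site of SP1-type factors. The Fgfr2 window lies at chr7:130266759-130267058 on the minus strand, the Fgfrl1 window at chr5:108693979-108694278 on the plus strand and the Fgf10 window at chr13:118714449-118714748 on the plus strand.
Fgfr2: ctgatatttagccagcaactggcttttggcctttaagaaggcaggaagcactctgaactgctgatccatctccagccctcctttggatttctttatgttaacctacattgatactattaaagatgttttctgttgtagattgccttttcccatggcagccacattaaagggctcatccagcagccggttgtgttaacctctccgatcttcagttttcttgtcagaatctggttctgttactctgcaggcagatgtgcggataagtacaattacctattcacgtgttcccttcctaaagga
Fgfrl1: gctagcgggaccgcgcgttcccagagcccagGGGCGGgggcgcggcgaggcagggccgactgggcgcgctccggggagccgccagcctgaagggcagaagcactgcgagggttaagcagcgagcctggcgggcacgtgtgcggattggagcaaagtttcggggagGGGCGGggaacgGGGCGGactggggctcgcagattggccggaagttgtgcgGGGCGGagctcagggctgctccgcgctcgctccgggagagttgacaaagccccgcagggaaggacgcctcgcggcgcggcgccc
Fgf10: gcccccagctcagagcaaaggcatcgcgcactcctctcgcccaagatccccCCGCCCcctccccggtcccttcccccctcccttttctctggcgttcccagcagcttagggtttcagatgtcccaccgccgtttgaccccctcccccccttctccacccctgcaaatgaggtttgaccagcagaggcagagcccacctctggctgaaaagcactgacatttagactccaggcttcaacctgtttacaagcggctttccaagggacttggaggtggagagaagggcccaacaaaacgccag
The 3 windows had little in common. The Fgfrl1 window was 73.7% G and C with 37 CpG dinucleotides and 4 GC boxes, the Fgf10 window 60.7% with 10 CpG and 1 GC box, and the Fgfr2 window 43.7% with 4 CpG and 0 GC boxes. Of the 10 windows of the 9 genes (Fgfr3 had a pair), 7 held a GC box, against 35.7% of 32851 windows of all genes. The TATA box (TATAAA, in 13.6% of all windows), an AP-1 site (TGANTCA, 7.81%) and a SOX site (AACAAT, 10.7%) were searched on both strands and were in 0 of the 10 windows, so no matches of different motifs overlapped. GC boxes are usual in CpG-rich promoters, and a match of letters does not show that a factor binds.

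The genes that entered the test held between 21007449 and 30983806 reads per sample. The WT pair differed more from each other than the mutant pair, with a chi-square of the counts over its degrees of freedom of 49.7 against 24.0. Senp6 RPKM was 10.8 and 18.0 in the WT and 12.0 and 8.07 in the mutant samples, which overlap. Since the deletion removes only some exons, a count over the whole gene does not show how complete it was. Xist had 11354 reads in mutant replicate 2, compared with 2 to 5 in the others, so embryo sex was mixed in the mutant group. The chondrocyte label was checked with 16 cartilage genes, and all 16 had reads. Their summed RPKM was 1067 and 1045 in the WT and 525 and 662 in the mutant samples. Of the 16, 14 were lower in both mutant samples than in both WT samples, against 19.2% of all genes tested. The 10 genes of fibroblasts and perichondrium summed to 6639 to 12733 RPKM, far above the cartilage genes in every sample. Most of that sum came from the collagens Col1a1, Col1a2 and Col3a1, with Col1a1 alone at 3311 to 7253. In bulk RNA, fewer cells of a type and less RNA per cell cannot be told apart.

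The first question was whether the receptors and ligands differed between mutant and WT chondrocytes. Fgfr1, Fgfr2, Fgfr3, Fgfrl1 and Fgf10 were lower in both mutant samples than in both WT samples, and so was Fgf9 at the limit of detection. Fgf2 was higher in both, and Fgfr4, Fgf7 and Fgf18 overlapped between the genotypes. None of the 9 genes that could be tested had an adjusted p under 0.05 in the quasi-likelihood test of edgeR with Benjamini-Hochberg adjustment, and neither did any of the 14123 genes tested (0%). DESeq2 called 706 of the genes it gave an adjusted p (5.31%) and 0 of these 9. At an unadjusted p under 0.05, 4 of the 9 were lower (Fgfr1, Fgfr2, Fgfrl1 and Fgf10), where 6.28% of all genes tested were lower, and 0 were higher, where 9.29% were higher. Complete separation of the 2 groups was seen for 5 of the 9 in the lower direction, against 19.2% of all genes tested, and for 1 in the higher direction, against 28.3%. The median log2 fold change (mutant minus WT) of the 9 genes was -0.45, and that of all genes tested was 0.0097.

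**Figure D1:**
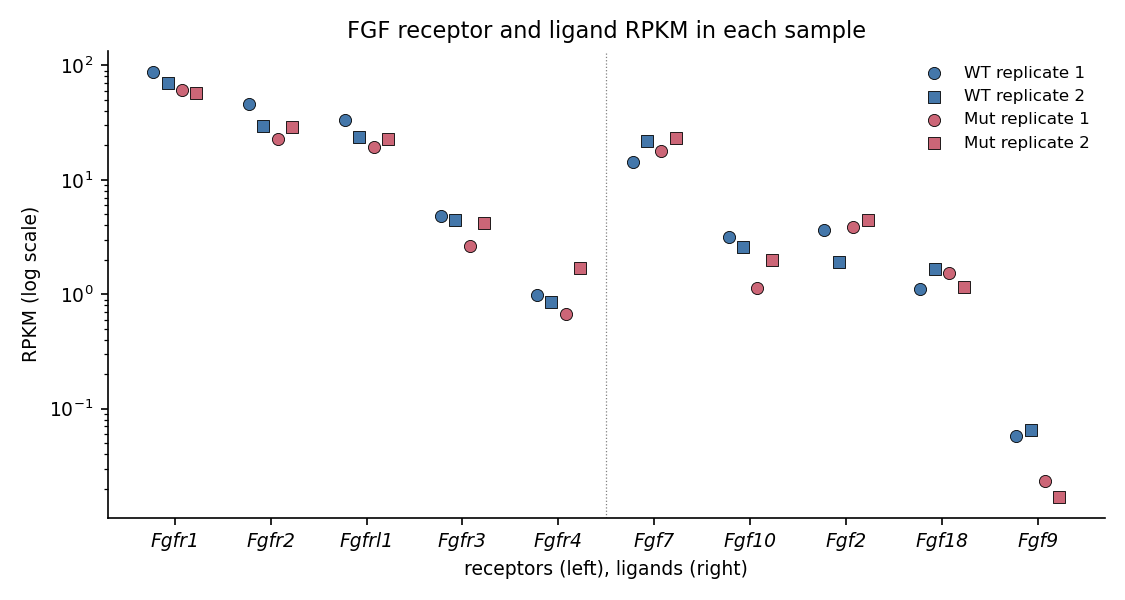
RPKM of the 5 receptors (left of the dotted line) and 5 ligands (right) on a log axis, with 1 point for each WT (blue) and mutant (red) sample. Fgfr1 lies between 57.5 and 87.4 in the 4 samples, and Fgf9 lies under 0.1 in all of them.

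Fgfr1 was the most abundant of the 10 genes in every sample. Its RPKM, a level scaled by gene length and by the reads of the library, was 87.4 and 69.7 in the WT and 61.0 and 57.5 in the mutant samples. The mutant values lay close together and below both WT values. The log2 fold change of Fgfr1 was -0.45 (SE 0.163, 95% interval -0.84 to -0.06, adjusted p = 0.250 by edgeR), from 8138 to 9461 reads per sample. On the log2 RPKM scale, replicate 2 minus replicate 1 was -0.33 in the WT and -0.08 in the mutant pair. Averaged over the samples, Fgfr1 stood above 94.4% of the listed genes in RPKM.

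Fgfr2 RPKM was 45.7 and 29.5 in the WT and 22.9 and 29.2 in the mutant samples. WT replicate 1 was high, while WT replicate 2 and mutant replicate 2 were almost level, so the groups were barely apart. The log2 fold change of Fgfr2 was -0.58 (SE 0.240, 95% interval -1.16 to -0.00, adjusted p = 0.319 by edgeR), and replicate 2 minus replicate 1 of the WT alone was -0.63. Fgfr2 shares 314 exon bases with Ctbp2 on the same strand in the GENCODE annotation of GRCm38. The GENCODE span of Fgfr2, 130162451 to 133123350, extends far upstream of its RefSeq window at 130266759 to 130267058. Whether the shared bases lie within the RefSeq gene was not examined, and how such reads were assigned is not given in the sources used here. Ctbp2, a transcriptional corepressor, had 1761 to 2912 reads per sample and Fgfr2 3710 to 5020.

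Fgfrl1, the receptor without a kinase domain, followed the same order of samples as Fgfr2. Its RPKM was 33.4 and 23.9 in the WT and 19.2 and 22.7 in the mutant samples, with WT replicate 1 again the highest. The log2 fold change of Fgfrl1 was -0.50 (SE 0.201, 95% interval -0.98 to -0.02, adjusted p = 0.302 by edgeR).

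Fgfr3, the receptor best known from the proliferating zone of the growth plate, was low in these cultures. Its RPKM was 4.83 and 4.48 in the WT and 2.65 and 4.23 in the mutant samples. Mutant replicate 1 stood well below the others, while mutant replicate 2 was just below the lower WT value. The log2 fold change of Fgfr3 was -0.48 (SE 0.236, 95% interval -1.05 to 0.08, adjusted p = 0.396 by edgeR). It was -0.20 without mutant replicate 1 and -0.84 without mutant replicate 2. Fgfr3 stood above 50.9% of the listed genes in mean RPKM, compared with 87.2% for Fgfr2 and 83.5% for Fgfrl1. In the GENCODE annotation Fgfr3 shares 998 exon bases with G630022F23Rik on the opposite strand, which had no counts under that name. Smaller overlaps with antisense transcripts were listed for Fgfr1 (164 bases) and Fgf10 (123 bases). How reads on such bases were assigned is not given in the sources used here.

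Fgfr4, a receptor known from liver and from regenerating muscle, was the least abundant receptor. Its RPKM was 0.983 and 0.863 in the WT and 0.667 and 1.69 in the mutant samples, from 65 to 150 reads. The mutant samples held both the lowest and the highest value, and the log2 fold change was 0.30 (SE 0.447, 95% interval -0.77 to 1.37, adjusted p = 0.808 by edgeR). Without mutant replicate 2 it was -0.49. The 10 striated muscle genes summed to 100 and 35.3 RPKM in the WT and 176 and 196 in the mutant samples. Of the 10, 6 were higher in both mutant samples, against 28.3% of all genes tested. The other 4 overlapped, among them Ckm, a gene of mature muscle (1.51 and 0.0270 against 0.296 and 0.250, log2 fold change -1.49). Myod1, which specifies muscle cells, had an RPKM of 1.80 and 0.537 in the WT and 4.30 and 9.30 in the mutant samples, and was highest where Fgfr4 was highest, but second in mutant replicate 1, where Fgfr4 was lowest. The part of muscle cells in the Fgfr4 values was not tested.

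WT replicate 1 had the highest value of Fgfr1, Fgfr2, Fgfr3, Fgfrl1 and Fgf10. Leaving out 1 WT sample moved the differences of Fgfr1, Fgfr2 and Fgfrl1 the most, while those of Fgfr3 and Fgf10 moved more without 1 mutant sample. Without WT replicate 1 the log2 fold change was -0.25 for Fgfr1, -0.20 for Fgfr2, -0.21 for Fgfrl1 and -0.75 for Fgf10. Without WT replicate 2 it was -0.66, -0.91 and -0.77, and for Fgf10 -1.11. In that fit Fgfr1 (adjusted p = 0.00432), Fgfr2 (adjusted p = 0.00160), Fgfrl1 (adjusted p = 0.00163) and Fgf10 (adjusted p = 0.0475) were under 0.05 by edgeR, but so were 20.0% of all genes tested. Over the 10 alternatives the adjusted p ran up to 0.947 for Fgfr1, 0.775 for Fgfr2, 0.816 for Fgfrl1 and 0.735 for Fgf10. The fit without WT replicate 2 holds 1 WT sample, which is assumed to vary as the mutant pair does. Osteoblast genes summed to 116 RPKM in WT replicate 1 and 66.5 in WT replicate 2, against 26.9 and 40.9 in the mutant samples. Of the 6 genes, 4 were lower in both mutant samples, against 19.2% of all genes tested. The fibroblast and perichondrium genes summed to 12733 and 8909 against 9040 and 6639, but the list was split. Of its 10 genes, 5 were lower in both mutant samples (19.2% of all genes tested) and 2 were higher (28.3%). The sum was led by collagen, as Col1a1 alone had 7253 and 4961 RPKM in the WT and 4828 and 3311 in the mutant samples, whereas Thy1, a surface antigen of fibroblasts, had 219 and 341 against 609 and 832 and was lowest in WT replicate 1. The osteoblast sum and Col1a1 were thus highest in the same WT replicate as the receptors. The osteoblast sum was led by Alpl (90.1 and 45.7 against 11.6 and 22.4), while Dmp1 and Bglap, with 0 to 14 reads, were highest in mutant replicate 2. The sum of the cartilage genes was almost level in WT replicate 1 (1067) and WT replicate 2 (1045), and its genes were split. Col2a1 (609 against 659) and Acan (16.8 against 28.2) were higher in WT replicate 2. Sox9 (45.6 against 31.3) and Col9a2 (33.7 against 22.5) were higher in WT replicate 1. The part of the cell types in the receptor values was not tested.

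**Figure D2:**
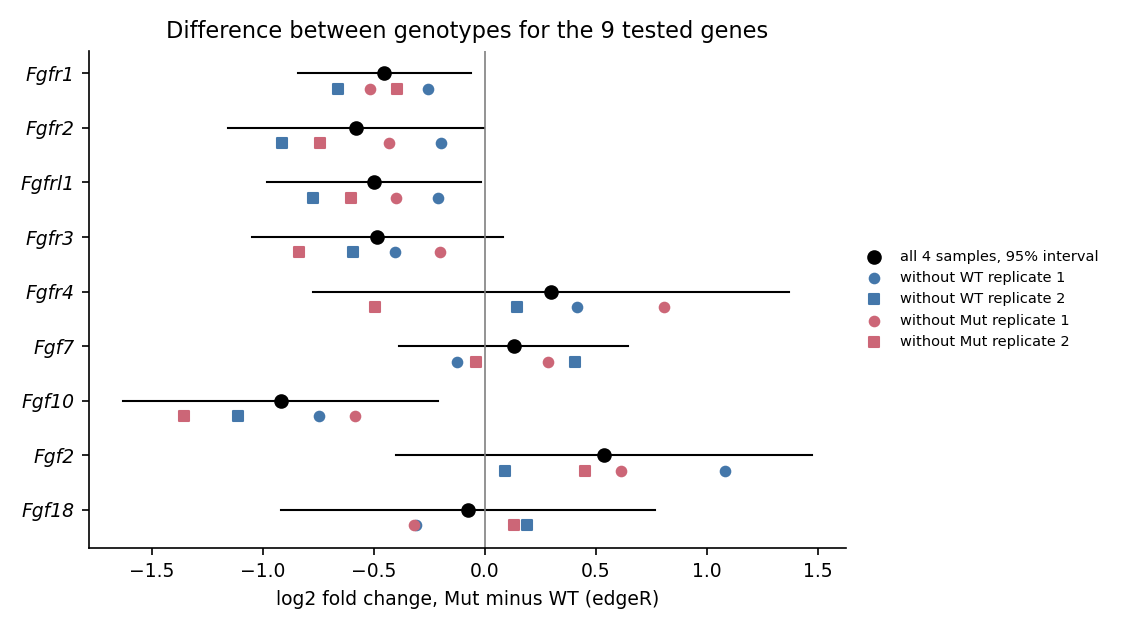
Log2 fold change (mutant minus WT, edgeR) of the 9 tested genes, with all 4 samples (black point and 95% interval) and with 1 sample left out (coloured points). Fgfr1, Fgfr2, Fgfrl1, Fgfr3 and Fgf10 stay below 0 in all 4 fits with a sample left out, while Fgfr4, Fgf7 and Fgf18 take both signs.

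Fgf7, also called keratinocyte growth factor, was the most abundant of the 5 ligands. Its RPKM was 14.4 and 21.9 in the WT and 17.9 and 23.0 in the mutant samples. The groups overlapped, with a log2 fold change of 0.13 (SE 0.215, 95% interval -0.38 to 0.65, adjusted p = 0.827 by edgeR). It was -0.12 without WT replicate 1 and -0.04 without mutant replicate 2.

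Fgf10, the ligand that starts limb and lung buds, had the largest difference in size of the 9 genes. Its RPKM was 3.15 and 2.59 in the WT and 1.14 and 2.00 in the mutant samples. Both mutant values were below both WT values, with mutant replicate 1 the lowest by far. The log2 fold change of Fgf10 was -0.92 (SE 0.295, 95% interval -1.63 to -0.21, adjusted p = 0.214 by edgeR), from 162 to 309 reads. With 1 sample left out it ranged from -1.35 to -0.59. Fgf7 and Fgf10 share the epithelial form of FGFR2 as receptor, and Fgf10 made up 18.0% and 10.5% of the RPKM of this pair in the WT and 5.99% and 8.0% in the mutant samples.

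Fgf2, the matrix-bound ligand long used to expand chondrocytes in culture, was the 1 gene with both mutant values above both WT values. Its RPKM was 3.63 and 1.93 in the WT and 3.85 and 4.43 in the mutant samples. WT replicate 2 was low, and WT replicate 1 was close to the mutant samples. The log2 fold change of Fgf2 was 0.54 (SE 0.390, 95% interval -0.40 to 1.47, adjusted p = 0.575 by edgeR), and it was 0.09 without WT replicate 2. In the GENCODE annotation, Fgf2 on chromosome 3 (37348346 to 37410108 in GRCm38) shares 640 exon bases with Nudt6 on the opposite strand. Whether any of them lie within the 695 bases over which Fgf2 was counted was not examined, so the Fgf2 values are uncertain. Whether reads were counted by strand is not given in the sources used here, and without strand the reads of both genes on shared bases cannot be told apart. Fgf2 had 35 to 87 reads per sample and Nudt6 202 to 279, and the length the files give Fgf2 is 695 bases.

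Fgf18, which signals to chondrocytes from the perichondrium, had an RPKM of 1.11 and 1.66 in the WT and 1.54 and 1.16 in the mutant samples. Each mutant value lay between the WT values, and the log2 fold change was -0.08 (SE 0.352, 95% interval -0.92 to 0.77, adjusted p = 0.942 by edgeR). It took the other sign without WT replicate 2 (0.19) and without mutant replicate 2 (0.13), so no direction could be given for Fgf18 at 37 to 76 reads.

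Fgf9 was close to absent. It had 5 and 7 reads in the WT and 3 and 2 in the mutant samples, an RPKM of 0.0574, 0.0646, 0.0234 and 0.0171, and was under the minimum of 10 counts in 2 samples for the test. With the library totals taken into account, the 5 mutant reads against 12 WT reads gave a ratio of 0.332, with an exact 95% interval from 0.0915 to 1.01 that covers counting error only. A difference in Fgf9 was not detectable at this depth.

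The files also give the percent of the gene length that reads covered. Fgfr1 was covered over 97.6% to 99.5% of its length and Fgfr2 over 83.2% to 87.2%, less than Fgfr3 at 90.8% to 95.8% although Fgfr2 had the higher RPKM, whereas 4084 genes with at least 1000 reads in every sample had a median coverage of 97.7%. Coverage of Fgf9 was 6.34% to 17.1%. Fgf2, with a short length and few reads, had 57.3% to 100%, and Fgfr4 had 71.1% to 96.9%.

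In the WT samples the order of mean RPKM was Fgfr1 (78.6 ± 12.5, SD, n = 2), Fgfr2 (37.6 ± 11.5), Fgfrl1 (28.6), Fgf7 (18.2), Fgfr3 (4.66), Fgf10 (2.87), Fgf2 (2.78), Fgf18 (1.38), Fgfr4 (0.923) and Fgf9 (0.0610). The ranges of the samples did not separate Fgfr2 from Fgfrl1, nor Fgf10 from Fgf2. Within each WT sample, though, Fgfr2 was above Fgfrl1 (45.7 against 33.4 and 29.5 against 23.9). In the mutant samples the first 4 kept their order, with Fgfr1 at 59.2 ± 2.42 and Fgfr2 at 26.1 ± 4.44, and Fgfrl1 (20.9) and Fgf7 (20.5) were not apart. They were followed by Fgf2 (4.14), Fgfr3 (3.44), Fgf10 (1.57), Fgf18 (1.35), Fgfr4 (1.18) and Fgf9 (0.0202). The ranges of the mutant samples did not separate Fgf2 from Fgfr3, Fgf10 from Fgf18, or Fgf18 from Fgfr4. Within each mutant sample, though, Fgf2 was above Fgfr3 (3.85 against 2.65 and 4.43 against 4.23).

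It was then asked whether the make-up of the receptors differed, since a share within a sample does not depend on the scaling of the library. Fgfr1 made up 50.7% and 54.3% of the summed receptor RPKM in the WT and 57.3% and 49.9% in the mutant samples. The mutant samples again lay on both sides of the WT samples, and the mean difference was 1.07 percentage points (exact permutation test, two-sided p = 1). Fgfr2 took 26.5% and 22.9% against 21.5% and 25.3%. For Fgfrl1 the shares were 19.4% and 18.6% against 18.0% and 19.7%, a difference of -0.115 points (exact permutation test, two-sided p = 1). Fgfr3 took between 2.49% and 3.67% in all 4 samples and Fgfr4 between 0.570% and 1.46%. The ratio of Fgfr1 to Fgfr2 RPKM was 1.91 and 2.37 in the WT and 2.66 and 1.97 in the mutant samples.

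**Figure D3:**
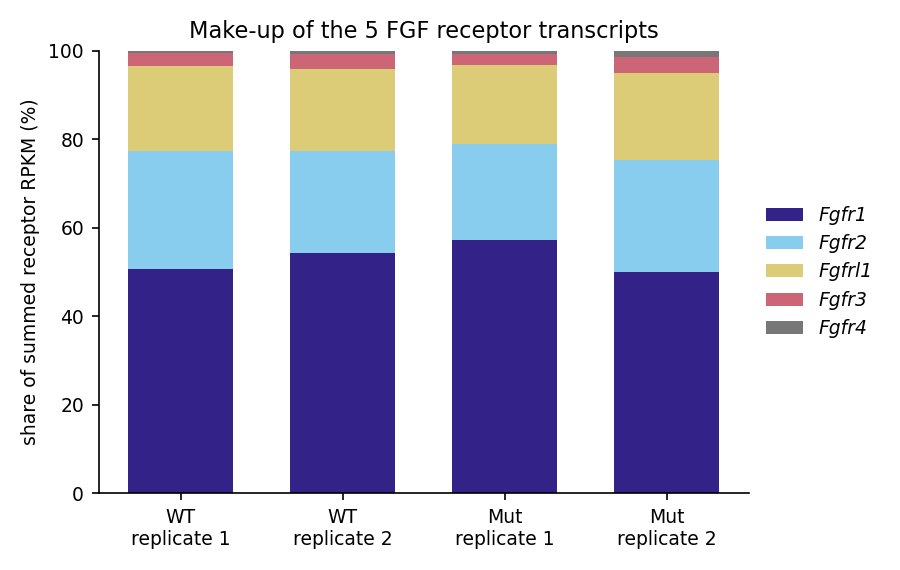
Share of each of the 5 receptors in their summed RPKM (percent, bars stacked to 100) in each WT and mutant sample. Fgfr1 fills 49.9% to 57.3% of every bar, and the 2 mutant bars lie on both sides of the WT bars.

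The summed RPKM of the 5 receptors was 172 and 128 in the WT and 106 and 115 in the mutant samples, so the groups did not overlap. The log2 ratio of the means was -0.44 (exact permutation test, two-sided p = 0.333, the smallest that 2 against 2 samples can give), and it was -0.21 without WT replicate 1. The summed RPKM of the 5 ligands was 22.3 and 28.2 in the WT and 24.5 and 30.6 in the mutant samples, which overlap (log2 ratio 0.12, exact permutation test, two-sided p = 0.667). Fgf7 supplied 64.4% to 77.9% of the ligand sum and so set most of it.

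The rest of the pathway was described by 92 genes in 6 lists, of which 86 had reads and 76 were tested. None had an adjusted p under 0.05 by edgeR, and the smallest was 0.0739. At an unadjusted p under 0.05, 17 of the 76 were higher in the mutant and 2 were lower, against 9.29% and 6.28% of all genes tested. Both mutant samples were above both WT samples for 45 of the 76, against 28.3% of all genes tested, and below for 6, against 19.2%. The same 28.3% and 19.2% apply to the counts given for each list below. The median log2 fold change was 0.21 over the 76 genes and -0.48 over the 5 receptors. The lists were chosen with earlier results of these data known, so these counts describe the samples and were not tested. At an adjusted p under 0.05, DESeq2 called 9 of the pathway genes, where it called 5.31% of the genes with an adjusted p. They were Fgf13, Fgf5, Klb, Sulf1, Dusp6, Spry4, Spred3, Fos and Ccnd1. The edgeR fit without a filter on low counts called 5 (1.56% of all genes) and the fit with the replicate block called 1, Fgf13 (0.828%). The edgeR fit with at least 10 counts in every sample and both limma fits on log2 RPKM called 0 pathway genes, and 0 of all genes tested. With 1 sample left out, edgeR called 10 without WT replicate 1 (4.77% of all genes), 22 without WT replicate 2 (20.0%), 3 without mutant replicate 1 (3.01%) and 2 without mutant replicate 2 (1.01%).

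The list of other ligands held 17 genes of the FGF family, some of them intracellular. Of these, 12 had reads and 4 were tested, and 3 of the 4 were higher in both mutant samples. Fgf13, a member of the intracellular branch of the family that binds sodium channels and is not secreted, had an RPKM of 0.228 and 0.290 in the WT and 1.78 and 2.19 in the mutant samples. Its log2 fold change was 2.88 (SE 0.325, adjusted p = 0.0739 by edgeR), from 12 and 19 reads against 138 and 155. The adjusted p of Fgf13 was under 0.05 in 7 of the 10 alternatives (range 2.64e-06 to 0.0737). Fgf5, the ligand that ends hair growth, is named after its values were seen, since its mean RPKM was under the limit of 1. It had 11 and 12 reads in the WT and 70 and 67 in the mutant samples (log2 fold change 2.19, adjusted p = 0.0873 by edgeR). Fgf11, also intracellular, had an RPKM of 0.983 and 0.734 in the WT and 1.09 and 1.31 in the mutant samples (log2 fold change 0.45, adjusted p = 0.689 by edgeR). Fgf23, the phosphate-regulating hormone of osteocytes, had 2 to 5 reads, and Fgf8 had 1 read in 1 sample.

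Among 16 tested co-receptors and binding proteins, 9 were higher and 2 were lower in both mutant samples (median log2 fold change 0.22). Sdc4, a heparan sulfate proteoglycan of the cell surface, had an RPKM of 64.2 and 106 in the WT and 125 and 158 in the mutant samples (log2 fold change 0.70, adjusted p = 0.227 by edgeR). Gpc1, a glypican, had 139 and 122 against 143 and 200 (0.35, adjusted p = 0.439 by edgeR), but its groups overlapped after TMM scaling. Gpc3, another glypican, was lower, at 88.6 and 55.4 against 53.5 and 49.1 (log2 fold change -0.54, adjusted p = 0.353 by edgeR). Klb, the co-receptor of the hormone-like ligands FGF15 and FGF21, is named after its values were seen. It had 77 and 14 reads in the WT and 5 and 3 in the mutant samples, so WT replicate 1 held most of them (log2 fold change -3.95, SE 1.04, adjusted p = 0.153 by edgeR).

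Of 13 genes that build or edit heparan sulfate, both mutant values were above the WT values for 6 and below them for 1 (median log2 fold change 0.13). Sulf1, which removes 6-O-sulfate groups outside the cell, had an RPKM of 21.96 and 29.0 in the WT and 49.5 and 45.3 in the mutant samples, with a log2 fold change of 0.86 (SE 0.159, adjusted p = 0.0916 by edgeR, range over the 10 alternatives 0.000341 to 0.121, under 0.05 in 5). Hs3st1, a 3-O-sulfotransferase, had 1.10 and 1.45 against 2.76 and 2.10 (0.89, adjusted p = 0.235 by edgeR). Ndst2, an N-sulfotransferase, had 12.5 and 13.2 against 11.9 and 12.4, a log2 fold change of -0.13.

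The 25 adaptors and kinases differed little, with a median log2 fold change of 0.09, and 14 were higher and 2 were lower in both mutant samples. Their largest tested differences in either direction with separate groups were those of the RAS genes Hras (18.0 and 22.6 RPKM in the WT, 27.1 and 29.3 in the mutant, log2 fold change 0.43) and Nras (17.1 and 24.5 against 26.2 and 27.2, 0.32), and of the kinase Map2k2 (63.9 and 58.5 against 51.2 and 56.4, -0.23) and the adaptor Shc1 (82.0 and 79.0 against 75.3 and 74.6, -0.15). Their adjusted p values by edgeR were between 0.229 for Hras and 0.637 for Shc1. The adaptor Frs3, named after its values were seen, had 2.50 and 1.67 RPKM in the WT and 1.45 and 1.69 in the mutant samples. Its log2 fold change was -0.45 (adjusted p = 0.549 by edgeR). The RPKM of its groups overlapped, but both mutant values were lower after TMM scaling.

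Of 11 feedback inhibitors, 7 had both mutant values above the WT values and 1 had both below, with a median log2 fold change of 0.27. Dusp6, the ERK phosphatase induced by FGF signaling, had an RPKM of 6.59 and 8.32 in the WT and 13.2 and 17.7 in the mutant samples. Its log2 fold change was 1.0 (SE 0.188, 95% interval 0.55 to 1.45, adjusted p = 0.0917 by edgeR). The adjusted p of Dusp6 was under 0.05 in 5 of the 10 alternatives (range 0.000884 to 0.227), among them DESeq2. Spry4, a Sprouty protein that blocks RAS activation, had 2.49 and 2.65 against 4.05 and 5.44 (0.84, adjusted p = 0.117 by edgeR, under 0.05 in 3 of the 10 alternatives). Lrig3, a membrane protein of the LRIG family, was lower, at 23.5 and 22.8 against 18.9 and 19.1 (log2 fold change -0.33, adjusted p = 0.272 by edgeR).

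Of the 7 transcription factors and growth genes of the last list, 6 were higher in both mutant samples and 0 were lower, and the median log2 fold change was 0.59. Fos, an immediate early gene, had an RPKM of 2.82 and 2.51 in the WT and 4.75 and 5.90 in the mutant samples (log2 fold change 0.95, SE 0.220, adjusted p = 0.122 by edgeR, under 0.05 in 3 of the 10 alternatives). Etv1, an ETS factor downstream of FGF signaling, had 1.32 and 1.69 against 2.32 and 2.82 (0.73, adjusted p = 0.194 by edgeR). Etv4 and Etv5, its relatives, had log2 fold changes of 0.59 and 0.24, with WT replicate 1 the lowest sample for both. Fos, Dusp6 and Spry4 also respond to other growth factors, and the activity of the pathway was not measured.

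**Figure D4:**
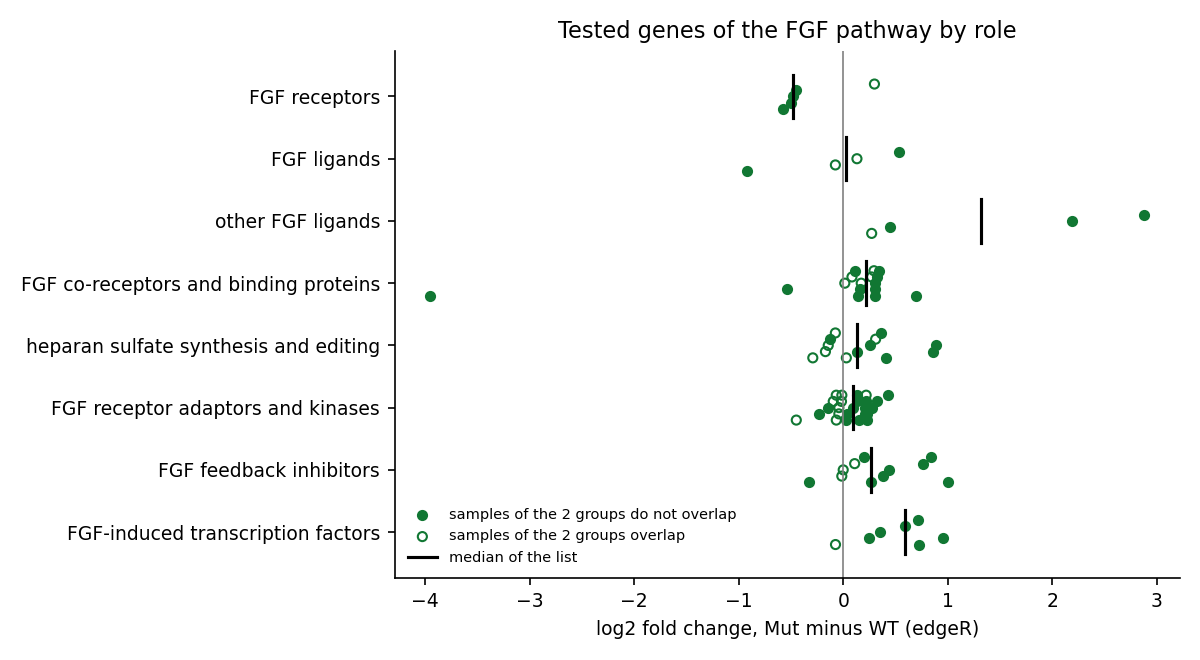
Log2 fold change (mutant minus WT, edgeR) of every tested gene by role, filled where the 2 groups do not overlap and open where they do, with the median of each list as a bar. The receptors have a median of -0.48 and the transcription factors one of 0.59.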

How the data were processed

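RNA of 4 cultures (2 WT, 2 mutant) was enriched for poly(A), fragmented, copied with random hexamers and sequenced by a service. In each sample's file the authors deposited raw read counts per gene. They deposited the RPKM as well; per the file headers it goes with a gene length, and it was recomputed from the count, that length and the sum of the counts. Coverage, in percent of the gene's length, was deposited as a further column. A gene without reads is absent from a sample's list and was given a count of 0. The submitters' processing notes name the build mm9 and SAMtools. The aligner, the counting tool, the annotation and the strand of counting are not given in the sources used here, and the labels name both the Ion Proton and Illumina. Promoters and gene positions were taken from RefSeq (GRCm38.p6) and GENCODE (GRCm38) by symbol, not from the authors' build.

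From these counts, genotypes were compared in R 4.3.3 by glmQLFTest of edgeR 4.0.16, with robust dispersions and TMM factors of 0.966 to 1.03. Tested were 14123 genes that reached 10 counts in 2 or more samples, and p values were adjusted by Benjamini-Hochberg over all of them. The F statistic gave the standard errors. The biological coefficient of variation was 0.169. Shares and sums were compared by the exact permutation test. In the smallest library 10 reads on a 2 kb gene make an RPKM of 0.238. Also run were DESeq2 1.42.0, a fit of all listed genes, a minimum of 10 counts in all samples, limma 3.58.1 on log2(RPKM + 1) and log2(RPKM + 0.1), a block for replicate number, and fits that each left 1 sample out. The replicate numbers of the labels were not taken as pairs in the main fit. The differences between replicates correlated across genes at -0.0422 between the genotypes. With 1 difference per genotype, this cannot show whether samples shared a litter or a batch. The script was tested on simulated counts.

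The 10 genes and the lists were chosen with earlier results of these data known. All 10 are named. Of each pathway list, the rule named the 2 largest differences in each direction among tested genes with a mean RPKM of at least 1 and separate groups, and genes outside it are marked as chosen after their values were seen, apart from Etv4, Etv5, Fgf8, Fgf23, Spred3 and Ccnd1, which were also chosen so.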

Additional observations from a re-analysis of the deposited data

How the results depend on the processing

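The number of the 10 FGF genes under an adjusted p of 0.05 was 0 under DESeq2, no filter, 10 counts in every sample, both limma fits and the block, and 0 to 4 with 1 sample left out, where the 4 were Fgfr1, Fgfr2, Fgfrl1 and Fgf10 without WT replicate 2. In the other alternatives with all samples the adjusted p was 0.145 to 0.328 for Fgfr1, 0.170 to 0.413 for Fgfr2, 0.225 to 0.402 for Fgfrl1 and 0.0799 to 0.262 for Fgf10. Of the pathway genes, 0 were called in the edgeR fit, 9 by DESeq2 (which called 5.31% of the genes with an adjusted p) and 5 without a filter (1.56% of all genes). The number was 0 with 10 counts in every sample and in both limma fits, which called 0 of all genes tested. With 1 sample left out it was 2 to 22, with 10 without WT replicate 1 (4.77%), 22 without WT replicate 2 (20.0%), 3 without mutant replicate 1 (3.01%) and 2 without mutant replicate 2 (1.01%). With the replicate block it was 1 (0.828%), Fgf13, at a log2 fold change of 2.89 (adjusted p = 0.0396 by edgeR, range over the 10 alternatives 2.64e-06 to 0.0737). The block changed no call of the 10 genes. Signs turned for Fgfr4 without mutant replicate 2 (range with 1 sample left out -0.49 to 0.81), for Fgf7 without WT replicate 1 or mutant replicate 2 (-0.12 to 0.41), and for Fgf18 without WT replicate 2 or mutant replicate 2 (-0.32 to 0.19). The difference in the Fgfr1 share was -2.64 to 4.77 percentage points with 1 sample left out, and that in the Fgfrl1 share was -0.925 to 0.695. The log2 ratio of the ligand sum was -0.045 to 0.30, and -0.022 without division by gene length. That of the receptor sum was -0.64 to -0.21. None of these small differences of shares or ligands had a stable sign, and the cause was not tested. Fgf9 had 2 to 7 reads and was limited by depth. Replicates of other low genes also lay apart, with replicate 2 minus replicate 1 at 1.34 (log2) for Fgfr4 in the mutant pair and -0.91 for Fgf2 in the WT pair.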

Other observations

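Of the remaining marker lists, hypertrophic chondrocyte genes summed to 431 and 542 RPKM in the WT and 513 and 664 in the mutant samples, led by Spp1 (310 and 468 against 479 and 600). Within that list Ibsp had 70.7 and 16.7 against 4.62 and 11.8 and Mmp13 48.4 and 55.3 against 27.4 and 47.5, both lower in both mutant samples. Col10a1, the defining collagen of these cells, had 1.47 and 2.21 against 1.76 and 4.24, so its groups overlapped (log2 fold change 0.65). Ihh was at 0 in a sample of each group. Endothelial genes summed to 0.901 to 1.57. Genes of macrophages and blood summed to 16.7 and 14.7 in the WT and 6.69 and 10.4 in the mutant samples. Their order of samples was that of the receptor sum. Lyz2 led these genes, at 11.1 and 7.85 against 2.53 and 4.76, and Csf1r and Adgre1 were also lower in both mutant samples. Cd68 overlapped in RPKM and was highest in WT replicate 2 (5.31), and Ptprc overlapped at 3 to 6 reads. Hba-a1 and Hbb-b1 were at 0 in at least 1 sample. The part of these cells in the receptor values was not tested. Epithelial genes, whose cells carry the FGFR2 form that FGF7 and FGF10 bind, summed to 4.29 and 10.8 in the WT and 21.5 and 27.5 in the mutant samples. The sum was led by the keratin Krt18 (3.47 and 9.24 against 19.5 and 24.1). Krt8 (0.501 and 1.29 against 1.59 and 2.28) and Epcam (0.162 and 0.130 against 0.376 and 0.721) were low but also higher in both mutant samples. Cdh1 and Krt14 overlapped between the genotypes at 0.253 RPKM or less, and Krt5 was at 0 in both mutant samples. The part of epithelial cells in these values was not tested.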
